A study of Caenorhabditis elegans with 2 samples.

Results

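Genes for the enzymes that remove superoxide and hydrogen peroxide were examined for binding of NHR-28, a nuclear hormone receptor, in ChIP-seq of Caenorhabditis elegans. The 10 genes were chosen by name, with earlier results of these data known, out of 19973 protein-coding genes. They comprised the superoxide dismutase genes sod-1 to sod-5, the catalase genes ctl-1 to ctl-3 and the peroxiredoxin genes prdx-2 and prdx-3. Every region was taken whose summit, the position of its highest signal, lay from 3 kb upstream of the gene to the gene's end (Ensembl release 115, WBcel235, the ce11 build). There were 2 samples in 1 group, biological replicates 1 and 2 of strain OP317, which carries the transgene insertion wgIs317 for eGFP-tagged nhr-28 in an unc-119(ed3) III background. The animals were whole L4 larvae of pooled sexes, so binding in a few cells of the animal and weak binding in many cannot be told apart. The labels do not name the promoter that drives the transgene, and no control sample was analysed here.

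Superoxide dismutases convert superoxide to hydrogen peroxide, which catalases and peroxiredoxins then break down. In C. elegans, sod-1 and sod-5 encode cytosolic copper/zinc enzymes, sod-4 an extracellular copper/zinc enzyme, and sod-2 and sod-3 mitochondrial manganese enzymes. ctl-1 encodes a cytosolic and ctl-2 a peroxisomal catalase. prdx-2 encodes a cytosolic peroxiredoxin and prdx-3 a mitochondrial one.

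Regions of the optimal set, which the authors kept after comparing the replicates, lay in the windows of 3 of the 10 genes, namely sod-1, sod-4 and prdx-2. An optimal summit lay in the same kind of window in 38.1% of all protein-coding genes, so the share among these enzymes was near the background. The same 3 genes had an optimal summit in a promoter, counted from 1000 bp before to 200 bp after each transcription start site (TSS), against 24.8% of all protein-coding genes. Another 4 genes, sod-2, sod-3, ctl-2 and prdx-3, had none in the optimal set but had summits in other lists, which keep weak background regions. The remaining 3, sod-5, ctl-1 and ctl-3, had no summit in any of the 4 lists, which was so for 26.1% of protein-coding genes. All protein-coding genes outside this 26.1% and the 38.1% with an optimal summit were, like those 4 genes, in other lists only. The windows were 3994 to 6492 bp long, and the median window of a protein-coding gene was 5027 bp long. With 1 group of samples and no other to compare it with, no test was made, and these counts are descriptions.

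The 4 optimal summits are shown with 100 bases to each side, on the strand of the gene, because they hold the positions on which the results turn. Capitals mark every match, on either strand, to the 8 short motifs searched.
sod-1, 199 bp downstream of the gene start, chrII:6973588-6973788 (ce11, minus strand): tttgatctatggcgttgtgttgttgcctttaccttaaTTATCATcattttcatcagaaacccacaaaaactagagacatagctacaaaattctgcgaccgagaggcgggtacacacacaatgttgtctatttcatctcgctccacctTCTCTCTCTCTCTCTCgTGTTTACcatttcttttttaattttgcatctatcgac
sod-4, 1963 bp upstream, chrIII:9502238-9502438 (minus strand): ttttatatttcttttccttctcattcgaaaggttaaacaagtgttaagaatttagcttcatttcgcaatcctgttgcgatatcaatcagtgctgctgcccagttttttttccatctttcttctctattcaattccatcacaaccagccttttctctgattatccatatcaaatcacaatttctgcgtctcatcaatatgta
sod-4, 98 bp upstream, chrIII:9500373-9500573 (minus strand): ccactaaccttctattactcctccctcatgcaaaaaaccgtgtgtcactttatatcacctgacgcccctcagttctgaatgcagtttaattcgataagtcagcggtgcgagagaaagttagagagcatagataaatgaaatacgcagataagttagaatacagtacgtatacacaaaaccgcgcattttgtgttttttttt
prdx-2, 101 bp downstream, chrII:5378196-5378396 (plus strand): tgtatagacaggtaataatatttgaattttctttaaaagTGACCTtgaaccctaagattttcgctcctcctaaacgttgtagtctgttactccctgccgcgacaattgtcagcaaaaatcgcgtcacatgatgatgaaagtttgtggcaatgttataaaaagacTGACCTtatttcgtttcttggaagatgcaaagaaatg

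The motifs were TGATAA (bound by GATA factors), GTAAACA (DAF-16), CACGTG (the E-box), AGGTCA and AGTTCA (half-sites of nuclear receptors), TGTCAT and TATCAT (the core of SKN-1 sites) and GAGAGAGA. The window at sod-1 held TGATAA on the strand opposite to the gene, 63 to 58 bp before the summit, where it overlaps a match to TATCAT on the gene's strand. It also held a run of overlapping GAGAGAGA matches and 1 match to GTAAACA, read on the opposite strand, from 47 to 70 bp after the summit. Of all optimal windows of this width, 46.2% held TGATAA, 21.7% TATCAT, 9.45% GAGAGAGA and 4.89% GTAAACA. Neither window at sod-4 held any of the 8 motifs. Only these exact words were searched, so other forms of the sites would be missed. The near window at sod-4 does hold AGATAA, which differs from TGATAA in its first base, within 50 bp after the summit. How many optimal windows hold AGATAA was not counted.

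The window at prdx-2 held AGGTCA at 2 positions, both on the opposite strand, starting 61 bp before and 64 bp after the summit. At least 1 AGGTCA occurred in 8.03% of optimal windows, and 2 or more in 27 windows (0.309%). That count was made after the pair at prdx-2 had been seen. No match to the 8 words lay wholly within 50 bp of any of the 4 summits, where TGATAA was found at 33.3% of all optimal summits. This holds for the exact words only. AGATAA, present this close to the near sod-4 summit, was not among them, so a lack of GATA sites cannot be read from it. A match here is a match of letters only. The G and C content of the windows was 39.3% at sod-1, 34.3% and 39.3% at sod-4, and 36.8% at prdx-2, and the median over the optimal set was 38.8%.

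sod-1, the gene of the main cytosolic superoxide dismutase (WBGene00004930, II 6972706 to 6973887, minus strand), had the highest signal of the 10 genes. Its optimal region spanned II 6973569 to 6973831 with a signal of 289, rank 231 of 8745. The signal is a value that the authors gave to each region, on a scale that the sources used here do not state. A region over this summit had a signal of 180 in replicate 1 (rank 221 of 30000) and 112 in replicate 2 (rank 277 of 30000). The gene thus stood near the top of both lists, and only 2.64% of optimal regions had a signal as high. Among all genes with an optimal summit in their window, 3.89% had one at least as high.

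The sod-1 summit lay in the first intron of the longer transcript, C15F1.7a.1, 199 bp after its start and 205 bp before the start of the shorter transcript, C15F1.7b.1. Summits of the replicate lists lay 206 bp (replicate 1) and 177 bp (replicate 2) after the gene start, in the same intron. The window of a neighbouring gene, art-1, also held the optimal summit, though the nearest TSS was that of sod-1. Other regions had lower signal. A pooled region 348 bp upstream of the gene start had a signal of 9.43, with 9.41 in replicate 2 and no region in replicate 1, and one in the 3′ UTR, 1015 bp after the start, had 8.88. Replicate 1 had no region overlapping the one in the 3′ UTR. Replicate 2 had a region of 4.98 with its summit there and one of 15.2 (rank 8431) that overlapped it and had its summit past the gene's end.

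**Figure D1:**
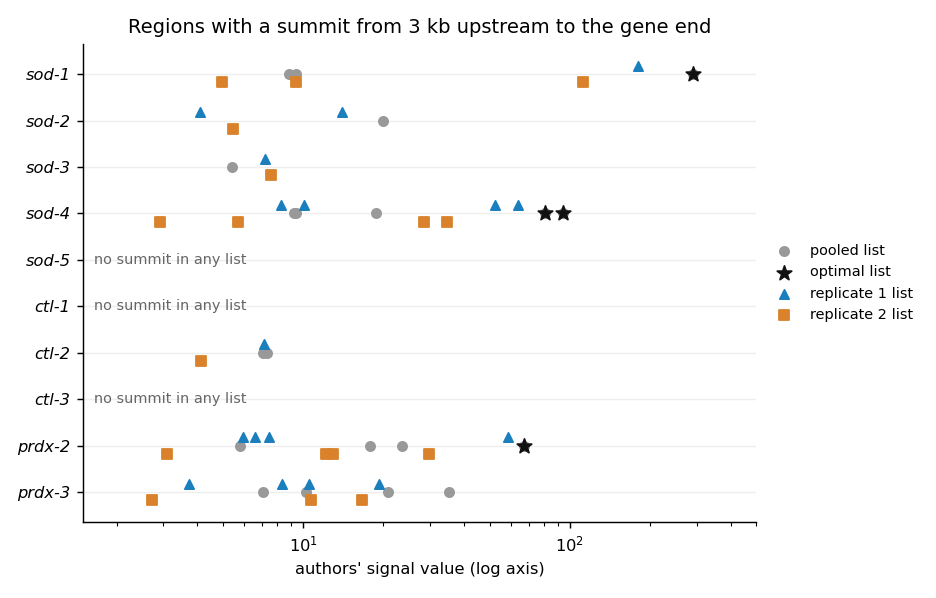
Signal of every region with a summit in the window of each of the 10 genes, on a log axis, with 1 row per gene and 1 symbol per list. Stars are optimal regions, which are also in the pooled list. sod-1 has the highest value in each list, and sod-5, ctl-1 and ctl-3 have none.

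sod-4, the gene of the extracellular superoxide dismutase (WBGene00004933, III 9496884 to 9500375, minus strand), was the single member with more than 1 optimal region. Both lay upstream in intergenic sequence. The far one (III 9502163 to 9502512), 1963 bp upstream, had a signal of 94.3 (rank 3024), with 63.8 in replicate 1 and 34.5 in replicate 2. The near one (III 9500298 to 9500647), 98 bp upstream, had 80.9 (rank 3783), with 52.6 in replicate 1 and 28.5 in replicate 2. Both values were above the optimal median of 72.7, and the far region was the higher in both replicates.

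The 4 annotated transcripts of sod-4 start at 3 positions, and the near summit lay 98 to 271 bp upstream of all of them. Between the 2 regions, a pooled region 964 bp upstream had a signal of 18.8, with 10.1 in replicate 1 and 5.70 in replicate 2. Pooled regions at the edges of the window, 2877 bp upstream and in the 3′ UTR that overlaps that of ctr-9, had 9.27 and 9.39, and each had a region in 1 replicate only. Of all protein-coding genes, 12.6% had 2 or more optimal summits in the window. The nearest TSS to both sod-4 summits was that of sod-4, and no other gene's window held them.

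The mitochondrial superoxide dismutase genes had pooled regions of low signal at their starts, in a list that keeps background regions. At sod-2 (I 8434550 to 8435807), a pooled region with its summit 117 bp upstream had a signal of 19.9 (rank 13044 of 29697), with 14.0 in replicate 1 and 5.48 in replicate 2. Its −log10 q in the pooled list was 2.65, where the maximum of that list was 4.32. The summit also lies in an intron of dpt-1, which runs on the other strand. The optimal set began at a signal of 36.2, and the nearest optimal summit lay 7.67 kb from the sod-2 start. At sod-3 (X 17092753 to 17094306), the pooled region 62 bp upstream had a signal of 5.42 (rank 29169), among the lowest of the list. Its −log10 q was 0.0299, so it cannot be told from background, and its summit lies in an intron of C08A9.3. Replicate 2 had a region there of 7.57 (rank 14005) and replicate 1 had none, its single region in the window being 2949 bp upstream (7.18). The nearest optimal summit to the sod-3 start was 25.6 kb away.

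sod-5 (WBGene00007036, II 4417633 to 4419130), the other cytosolic superoxide dismutase gene, had no summit in any list. The nearest optimal summit (signal 42.7) was 974 bp past the end of the gene and 152 bp upstream of the TSS of bpnt-1. Of the 2 copper/zinc genes of the cytosol, sod-1 thus ranked near the top of both replicates, whereas sod-5 was in no list.

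**Figure D2:**
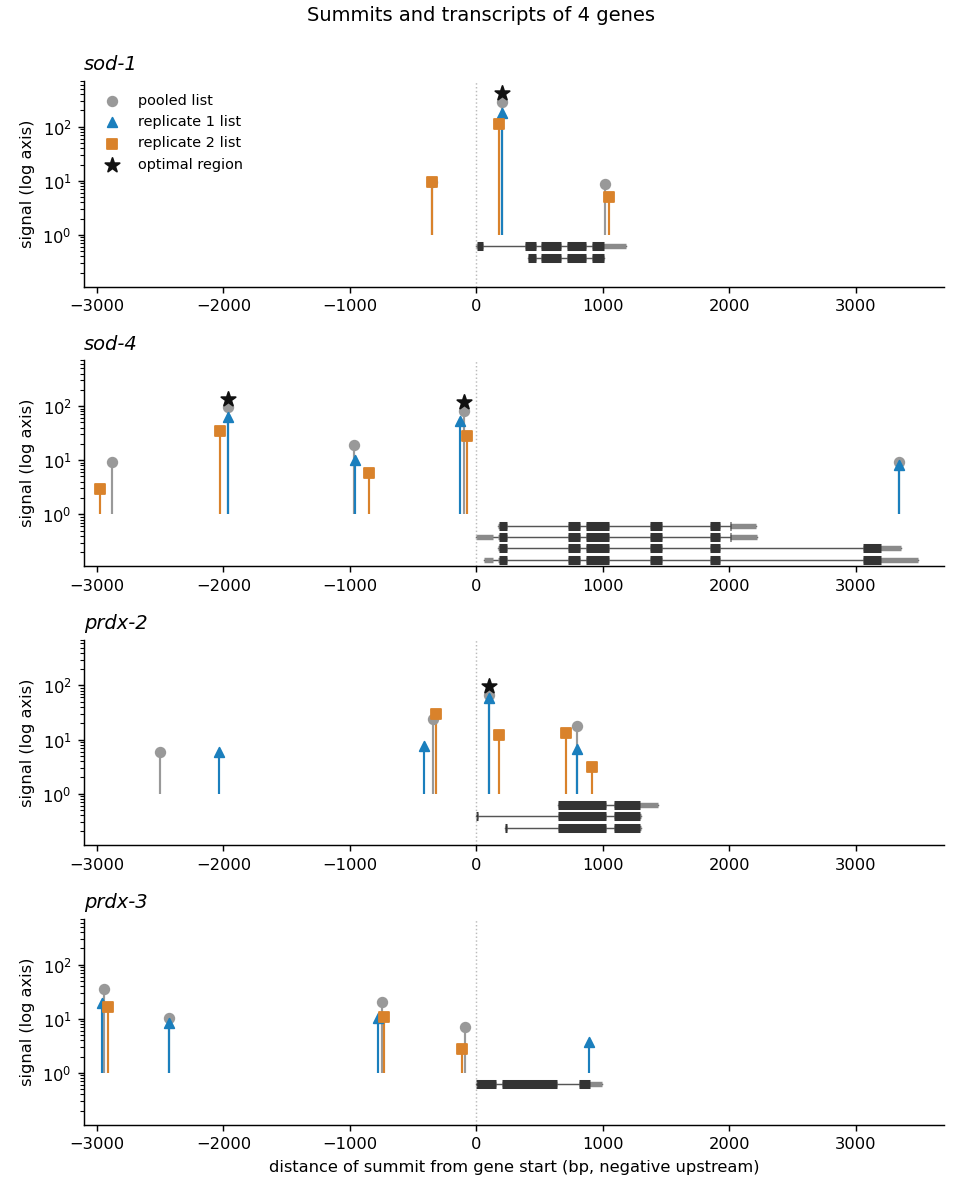
Summits around sod-1, sod-4, prdx-2 and prdx-3 by distance from the gene start in bp (negative values are upstream), with the signal on a log axis as the height of each stem and the annotated transcripts below (thick, coding; medium, untranslated exon). Stars stand just above optimal regions and mark a position, not a value. Both replicates have a summit near each optimal region of sod-1 and sod-4, whereas at prdx-2 the highest summit of replicate 1 is in the intron and that of replicate 2 is upstream.

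The 3 catalase genes lie side by side on chromosome II, and much of their sequence occurs more than once in the genome. ctl-1 (II 14303568 to 14306260) and ctl-3 (II 14307798 to 14310779) had no summit in any list. ctl-2 (II 14299556 to 14302027) had only weak ones, with pooled signals of 7.09 in a coding exon and 7.31 in an intron, neither with a region in a replicate. Their −log10 q was 0.155 and 0.176. The replicate lists instead had a region at the 3′ end of ctl-2, with 7.17 in replicate 1 and 4.15 in replicate 2. The nearest optimal summit (signal 143) was 3.05 kb past the end of ctl-2 and nearest to the TSS of Y54G11A.7.

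Words of 36 bases that occur once in the genome, on either strand, were counted as a measure of uniqueness. In the 3 kb upstream of ctl-1 and of ctl-2, 0 of 2965 words were unique. In the gene body of ctl-1, 0.188% were unique, against 81.0% in that of ctl-2 and 17.9% in that of ctl-3. The first 1 kb upstream of ctl-3 was 97.5% unique, and it too held no summit in any list. The sources used here give neither the length of the reads nor how reads that map to several places were treated. A lack of regions at ctl-1, upstream of ctl-2 and in the body of ctl-3 is therefore uncertain. The cause of the missing regions was not tested.

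**Figure D3:**
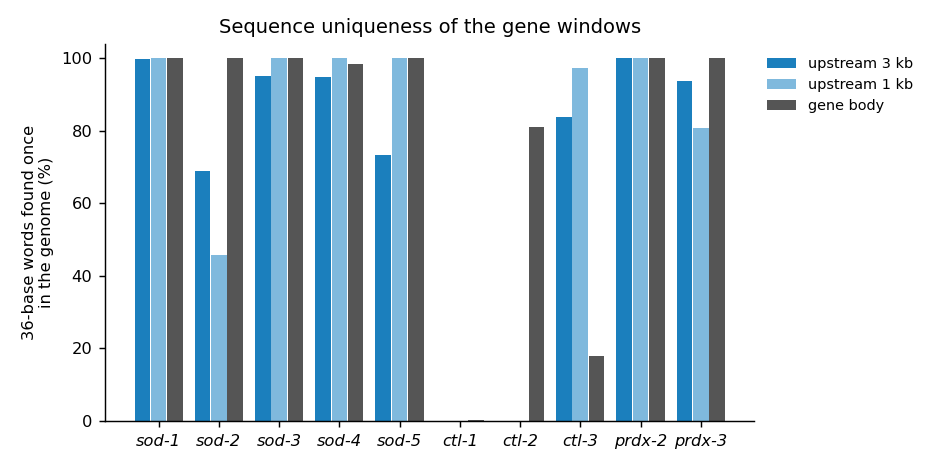
Percent of 36-base words that occur once in the genome, in the 3 kb upstream, the 1 kb upstream and the body of each gene. Upstream bars of ctl-1 and ctl-2 are at 0, the body of ctl-1 is at 0.188%, and sod-1 and prdx-2 are at 99.8% or more throughout.

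All words within 100 bp of the 4 optimal summits were unique (100%), as were those at the pooled summits 117 bp upstream of sod-2 and 62 bp upstream of sod-3. At the pooled summit 747 bp upstream of prdx-3, 72.9% were unique. In the 1 kb upstream of sod-2 as a whole, 45.8% of words were unique. The 1 kb upstream of sod-5 was 100% unique, and the 3 kb upstream 73.3%.

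prdx-2, the gene of the cytosolic peroxiredoxin (WBGene00006434, II 5378195 to 5379631, plus strand), had an optimal region on which the replicates differed. It spanned II 5378215 to 5378375 and had a signal of 67.3 (rank 4850), below the optimal median. Over its summit replicate 1 had a signal of 58.4 (rank 3112 of 30000) and replicate 2 had 12.2 (rank 10005 of 30000). These ranks were 23.0 percentile points apart. Of the 8557 optimal regions with a region over the summit in both replicates, 355 (4.15%) differed by as much, and the median difference was 4.31 points. The signal of replicate 1 was 4.78 times that of replicate 2 at prdx-2. Over the same 8557 optimal regions the median of that ratio was 1.61, and 3.63 was its 95th percentile.

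Upstream of prdx-2 the order was the other way round. A pooled region 347 bp upstream had a signal of 23.5, with 7.45 in replicate 1 (rank 18895) and 29.7 in replicate 2 (rank 4177). In the coding exon, 795 bp after the gene start, the pooled signal was 17.9, with 6.60 in replicate 1 and 13.0 in replicate 2. Replicate 1 thus had 1 high summit at prdx-2, in the intron, and replicate 2 had its highest summit upstream and lower ones in the gene.

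The optimal summit lay in the first intron of transcript F09E5.15b.1, 101 bp after its start and 127 bp before that of F09E5.15c.1. The summit of replicate 2 in that intron was 182 bp after the gene start. The window of pkc-3, a downstream neighbour, also held the optimal summit. The optimal region was narrow at 161 bp, as 29.8% of optimal regions were narrower than the median of 350 bp, and the region of replicate 1 was 138 bp wide against 340 bp in replicate 2.

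prdx-3, the gene of the mitochondrial peroxiredoxin (WBGene00011110, III 4407444 to 4408437, plus strand), had 4 pooled regions and no optimal one. The highest (signal 35.1, rank 8957) fell just below the lowest optimal signal of 36.2 while having the maximal −log10 q of the pooled list, 4.32. It had a signal of 19.3 in replicate 1 (rank 10041) and 16.7 in replicate 2 (rank 7785). This summit lay 2941 bp upstream, near the edge of the window and 67 bp upstream of the TSS of another gene, R07E5.17. At the prdx-3 start itself, the pooled region 89 bp upstream had a signal of 7.08, with 2.72 in replicate 2 and no region in replicate 1. A further region 747 bp upstream, in an intron of rnp-4, had 20.8, with 10.5 and 10.7 in replicates 1 and 2.

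**Figure D4:**
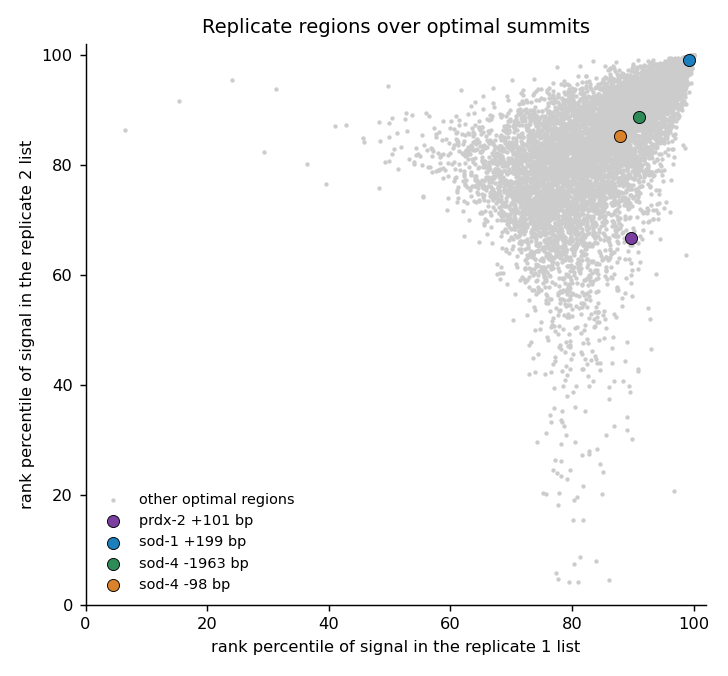
Rank percentile of signal in the replicate 1 list (x axis) and the replicate 2 list (y axis) for the 8557 optimal regions with a region over the summit in both, with 100 the highest. sod-1 is at 99.3 and 99.1, and prdx-2 is at 89.6 and 66.7.

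Among the 4 optimal regions, the replicates were closest at sod-1, with rank percentiles of 99.3 in replicate 1 and 99.1 in replicate 2. At least this difference was seen in 95.9% of the 8557 optimal regions with a region in both. A region near the top of both lists can differ by few points only, and regions of like rank were not compared separately. The sod-4 regions were at 91.0 and 88.7 (far) and 87.9 and 85.3 (near) in replicates 1 and 2. Their signal ratios of replicate 1 over replicate 2 were both 1.85, and that of sod-1 was 1.61, as was the median over those 8557 regions.

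A wider list of redox genes was set beside the 10, comprising thioredoxins, glutaredoxins, glutathione enzymes, sources of NADPH and related genes. Of its 33 genes, 14 had an optimal summit in the window, against 3 of the 10 and 38.1% of all protein-coding genes. In a promoter, 13 of the 33 had one, against 24.8% of all protein-coding genes. This list too was chosen with earlier results of these data known. No test was made, so the counts are descriptions and not a sign of an excess. The highest signals were at idh-1, an NADP-dependent isocitrate dehydrogenase gene (391, rank 88), gsr-1, the glutathione reductase gene (183, rank 811), msra-1, a methionine sulfoxide reductase gene (116), idh-2, a mitochondrial isocitrate dehydrogenase gene (105), and sesn-1, the sestrin gene (99.8). Replicates 1 and 2 had signals of 254 and 142 at idh-1 and of 107 and 74.4 at gsr-1. At idh-2 the nearest TSS to the highest summit was that of C34F6.7.

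By enzyme family, 5 of 8 glutathione peroxidase genes (gpx-1, gpx-4, gpx-5, gpx-6 and gpx-7) had an optimal summit, with signals from 46.1 at gpx-7 to 90.6 at gpx-1, where the share of all protein-coding genes was 38.1%. The summit at gpx-4 was 1461 bp upstream, outside its promoter, and nearest to the TSS of Y94H6A.3. These enzymes remove hydrogen peroxide and lipid peroxides, or are related to those that do. Of 5 thioredoxin genes only trx-3 had one (89.4), and of 2 thioredoxin reductase genes only trxr-1 (42.3). None of the 5 glutaredoxin genes had one, nor did prdx-6, a further peroxiredoxin gene, or gcs-1, which encodes the enzyme of the rate-limiting step of glutathione synthesis.

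**Figure D5:**
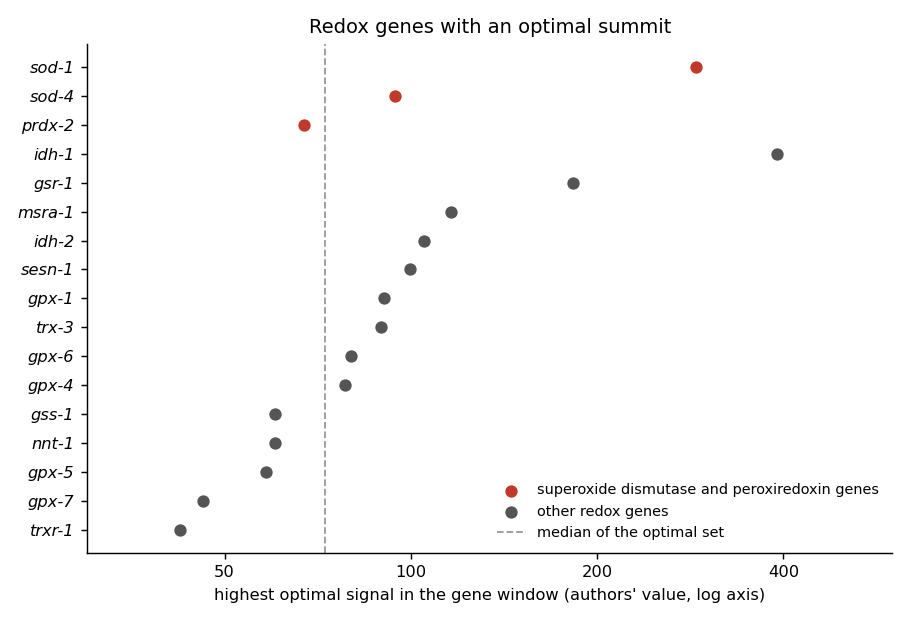
Highest optimal signal in the window of each gene with an optimal summit, on a log axis, for 3 superoxide dismutase and peroxiredoxin genes (red) and 14 other redox genes (grey). The dashed line is the optimal median of 72.7, and sod-1 (289) lies between idh-1 (391) and gsr-1 (183).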

How the data were processed

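ChIP-seq regions of eGFP-NHR-28 were analysed from 4 ce11 lists: replicate 1, replicate 2, the pooled alignments and the optimal set. Per the descriptions deposited with the files, the authors called regions relative to a control alignment, kept weak background ones, and derived the optimal set by the irreproducible discovery rate (IDR) procedure. Neither the peak caller nor the IDR threshold is given in these sources. The signal of each region (column 7) and its −log10 q are the authors' values. The lists held 8745 optimal, 29697 pooled and 30000 regions per replicate, and the optimal regions were the pooled ones of highest signal. Read counts were not analysed here, so the depth is unknown and lists are set side by side without a test.

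Ranks are by signal within a list (pandas 2.3.3). Replicate regions were matched to an optimal summit as the highest one covering it, and elsewhere by any overlap with the pooled region. Sequences are RefSeq's of WBcel235, with 1-based coordinates. The window search was tested on simulated data. The 10 genes, the 33 redox genes and the motifs were chosen with earlier results of these data known. The text names all 10 genes, the 5 redox genes of highest signal, and genes that share a summit or have the nearest TSS. Other redox genes were named after their values were seen. Alternatives changed the windows, the assignment of summits, the set of regions and the replicates. The ce10 lists were not used.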

Additional observations from a re-analysis of the deposited data

How the results depend on the processing

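Across the 8 alternatives to the main count, the number of the 10 genes with an optimal summit in the window ran from 2 to 4. It was 2 among the 4372 optimal regions of highest signal, where prdx-2 dropped out (22.5% of all protein-coding genes), and 4 with all 10560 pooled regions at the maximal −log10 q, where prdx-3 was added (42.7%). To leave out a replicate, the 8745 regions of highest signal in the other replicate's list were used in place of the optimal set. Leaving out replicate 2 gave 3 (37.8%), and leaving out replicate 1 gave 4, prdx-3 being added (38.0%). Without replicate 1, prdx-2 was counted through its region 323 bp upstream (rank 4177 in replicate 2). The region of replicate 2 over its optimal summit (rank 10005) was not among the 8745. sod-1 and sod-4 were counted under every alternative run. The promoter count stayed at 3 under the alternatives run, except for 2 among the 4372 regions of highest signal (13.7%). It was 3 without replicate 1 (24.6%) and 3 without replicate 2 (24.5%). Without replicate 1, prdx-2 was again counted through the upstream region and not through its optimal summit. The other redox genes with an optimal summit ran from 9 of 33 among the 4372 regions of highest signal, where 22.5% of protein-coding genes had one, to 19 with a window from 5 kb upstream (45.7%), and were 14 and 15 without replicate 2 and replicate 1. With 50 bp in place of 100 bp to each side, the member windows with TGATAA were 0 in place of 1, a narrower window holding less sequence. The highest signal of each gene differs between the lists, whose scales need not be the same. No paired analysis was possible because there was 1 group. Depth is unknown, so it cannot be said how far a weak or missing region reflects few reads.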
